A study of Mus musculus with 12 samples.

Results

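The question addressed here was where butyrate and the cytokine interleukin-13 (IL-13), given together to mouse ileal enteroids, moved a transcript further or less far than their separate effects predicted. All 12 RNA libraries of the series entered one 2 by 2 design. The measure was the log2 interaction, that is, the log2 change that IL-13 made in the presence of butyrate minus the change it made without butyrate. By arithmetic the same number is the butyrate change with IL-13 minus the butyrate change without it. An interaction of 0 means that the fold change of the combination equals the product of both single fold changes. A gene was called above or below that product at a Benjamini-Hochberg adjusted p under 0.05 in edgeR's quasi-likelihood test over 13750 tested genes, of 18068 in the table. The test called 119 genes (0.865% of those tested), 35 above the product (0.255%) and 84 below it (0.611%).

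The enteroids, epithelial organoids grown from the ileum of wild-type C57Bl/6 mice, were left untreated, given 1 mM butyrate for 48 h, given 20 ng/mL IL-13 for 72 h, or given both agents, with 3 libraries in each of the 4 groups. The labels do not say when butyrate started relative to IL-13 in the combined group, nor whether libraries of a group came from separate mice or cultures, so the tests rest on a spread between libraries that may be technical. Directional poly(A) RNA sequencing gave 13867982 to 24294456 counts per library, and the 6 libraries with IL-13 were the shallower ones. Such cultures are epithelium without the immune, stromal and nerve cells of the gut wall. The epithelial adhesion molecule Epcam had a mean of 1613 CPM (counts scaled to the library total and composition) in untreated enteroids and 2104 CPM with both agents, and the microvillus protein gene Vil1 had 561 and 609 CPM. Markers of other cells were mostly low or absent from the count table. Of 12 mesenchymal genes 10 had a row and 3 passed the filter on low counts. Of 15 immune genes the numbers were 8 and 5, of 8 endothelial genes 6 and 3. Of 10 glial and neuronal genes they were 8 and 3. The summed levels of those that passed were 5.34 to 9.64, 52.0 to 68.7, 3.91 to 11.1 and 0.731 to 5.99 CPM per library. Genes without a row cannot be judged. Col1a2, Lum and Cd3e had at most 1 count in any library. Others were well above 0, with 281 to 928 counts for Cd14, 225 to 462 for Csf1r, 85 to 212 for Itgam and 48 to 127 for Esam. Butyrate library 2 and combined library 3 stood apart with 5048 and 6983 CPM of Lars2, the gene of a mitochondrial tRNA synthetase, against 423 to 1434 CPM in the other 10. Without both, 30 genes were called above and 71 below, among them 24 of the 35 and 52 of the 84. Levels are given throughout as CPM, with the 3 libraries of a group in the order of their labels. CPM are not per length, so they compare libraries for one gene and not genes with each other.

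Butyrate is a short-chain fatty acid made by gut bacteria. Colonic epithelium uses it as fuel, and it inhibits class I histone deacetylases, which raises histone acetylation and changes transcription widely. IL-13 is the type 2 cytokine released in responses to worms and allergens, and it signals through the IL-4 receptor alpha chain, JAK kinases and the transcription factor STAT6. In the intestinal crypt, stem and progenitor cells divide and choose between an absorptive fate and the secretory fates (goblet, Paneth, enteroendocrine and tuft cells), and the transcription factor ATOH1 opens the secretory route. These are bulk libraries, so for every cell-type gene named below, fewer cells of a type and less RNA per cell cannot be told apart.

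**Figure D1:**
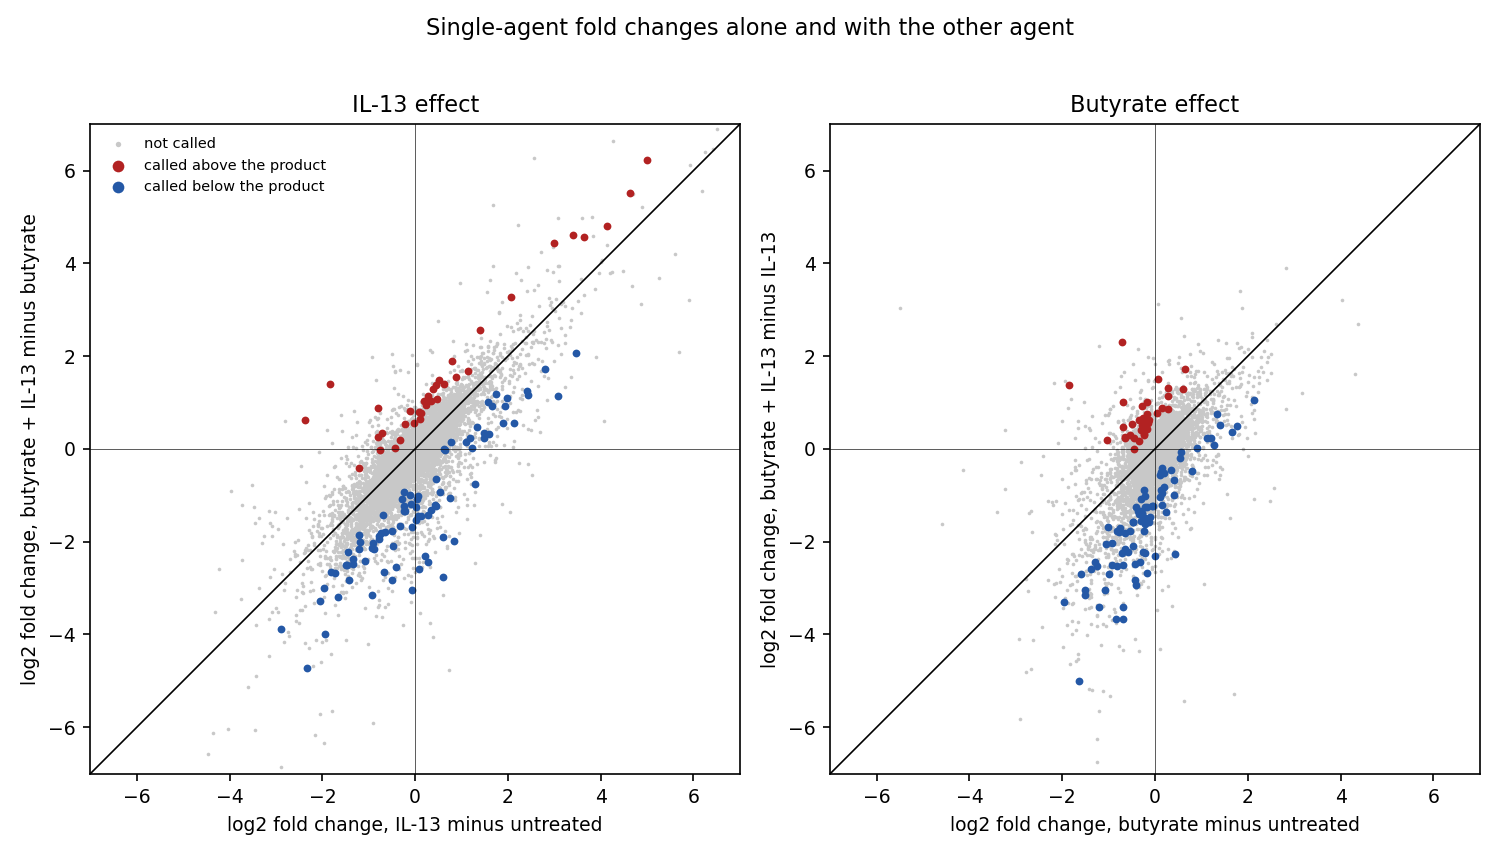
Each point is 1 of 13750 tested genes. The left panel plots the log2 fold change by IL-13 without butyrate (x) against the change with butyrate (y), and the right panel the butyrate change without IL-13 (x) against that with IL-13 (y). Points on the diagonal are additive on the log2 scale, red points are the 35 genes called above and blue points the 84 called below, and 19 genes lie beyond the axes of the left panel.

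Across the transcriptome, the changes by an agent with and without the other were correlated, more closely for IL-13 than for butyrate. Over the 13750 genes, the IL-13 changes with and without butyrate, which share no library, correlated at Pearson's r = 0.826 and Spearman's rho = 0.816. The corresponding butyrate changes correlated at r = 0.607 and rho = 0.599. These are descriptions across genes, which are not independent replicates. Among the 11580 genes averaging 50 counts or more, r was 0.914 for IL-13 and 0.708 for butyrate. The spread of the IL-13 changes over genes was 0.767 (SD, log2) without butyrate and 0.881 with it. The spread of the butyrate changes was 0.422 without IL-13 and 0.624 with it. By the same test, butyrate alone changed 7.9% of the tested genes and butyrate added to IL-13 changed 21.2%, against 43.5% for IL-13 alone and 47.7% for IL-13 added to butyrate. The median interaction over all genes was -0.02, with 6286 positive and 7464 negative values.

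The combined libraries lay mostly at the edge of the range in the called genes. Of the 35 genes above the product, 25 (71.4%) had all 3 combined libraries above the other 9, where 11.8% of all tested genes did so. Of the 84 genes below the product, 60 (71.4%) had all 3 combined libraries below the other 9, against 11.9% of all tested genes. These positions are partly set by the call itself and are given as a description. Of the genes below, 4 had all combined libraries above the other 9. The gene lists described here held 12 of the 35 and 26 of the 84. The share of all tested genes in these lists was not counted, so the numbers do not show an excess of calls in them. Among the genes above, the butyrate change had opposite signs without and with IL-13 in 26, and the IL-13 change kept its sign and was larger with butyrate in 23. Among the genes below, the butyrate change kept its sign and was larger with IL-13 in 57, and the IL-13 change kept its sign and was larger with butyrate in 42, was smaller in 20 and had the opposite sign in 22. Over all tested genes, the butyrate change reversed in 26.5% and was larger in 48.1%, and the IL-13 change reversed in 15.9%, was larger in 49.5% and smaller in 34.6%. These patterns too are partly set by the call, since the interaction is the difference of the changes compared. Signs were counted whether or not a single-agent change passed its test. The sizes ran from 0.45 to 3.36 on the log2 scale, with a median of 0.85 above and -1.20 below. At the edge of the call, Me1 (interaction 0.90, adjusted p = 0.0471) and the iron importer Slc11a2 (-0.62, 0.0471) were just inside, and the carbonic anhydrase gene Car4 (1.39, 0.0507) was just outside.

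Atoh1 and Spdef, transcription factors of secretory cells, were below the product. Atoh1 (chr6:64729146-64731233, + strand, mm10) was at 48.8, 62.7 and 62.3 CPM untreated, 40.6, 34.8 and 34.9 with butyrate, 42.2, 33.7 and 35.1 with IL-13, and 11.5, 9.0 and 11.2 with both. Each agent alone lowered it to a similar level, and the combined libraries lay below all others and at 0.45 times the product, which was 23.5 CPM (interaction -1.15 ± 0.18 SE, adjusted p = 0.0052). Spdef, an ETS factor that drives goblet and Paneth cell maturation, was at 30.7, 46.3 and 52.4 CPM untreated, 27.9, 25.4 and 29.1 with butyrate, 48.8, 42.2 and 45.1 with IL-13, and 12, 10.5 and 7.90 with both. IL-13 thus left Spdef within the untreated range without butyrate, while with butyrate it lowered the gene by 1.44 on the log2 scale (adjusted p = 2.9e-06), and the interaction was -1.51 ± 0.24 (adjusted p = 0.0049). Both calls held when any 1 of the 12 libraries was left out. Id3, an inhibitor of basic helix-loop-helix factors and a target of BMP signalling, stood on the other side: it was at 43.7 to 45.0 CPM untreated, 30.0 to 41.0 with butyrate, 51.1 to 53.1 under IL-13 and 60.7, 70.3 and 76.7 with both (interaction 0.71 ± 0.16, adjusted p = 0.031).

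Among the goblet cell and mucus genes, 29 were tested, 4 were below the product and 2 above, and the median interaction was -0.40. The background over all tested genes was 0.611% below and 0.255% above. Atoh1 and Spdef, described before, and Agr2 were among the 4 below. Agr2, a protein disulfide isomerase needed for mucin folding, had the lowest interaction of that list. It was at 137, 170 and 195 CPM untreated, 159.8, 148 and 123 with butyrate, 38.3, 44.1 and 47.4 with IL-13, and 12, 9.24 and 6.14 with both. The butyrate libraries overlapped the untreated ones (adjusted p = 0.44), but butyrate added to IL-13 lowered the gene by 2.25 on the log2 scale, to 0.245 times the product (interaction -2.03 ± 0.24, adjusted p = 0.00051). Ern2, the goblet cell sensor of the unfolded protein response, had an interaction of -1.11 ± 0.26 (adjusted p = 0.048). The Ern2 call was lost with RLE scaling, with the higher filter, without the Lars2-high libraries and in 9 of 12 fits with a library left out (adjusted p of up to 0.13). A4gnt and Rep15, also called below, are not on that list. A4gnt, which adds the terminal alpha-linked N-acetylglucosamine of gland-type mucin, was raised by IL-13 from 3.49, 4.54 and 5.93 CPM to 7.93, 8.10 and 8.58, and stood at 0.475, 1.04 and 0.439 with both agents. Its interaction of -2.81 ± 0.49 (adjusted p = 0.0059) was the lowest among the named genes, at a level of few counts. Rep15, a binding partner of the trafficking protein RAB15, fell to 4.11, 3.27 and 2.78 CPM with both, against 14.8 to 28.9 CPM in the other 9 libraries (-2.13 ± 0.27, adjusted p = 0.00065). The 2 goblet-list genes above the product were Fut2, the fucosyltransferase of the secretor antigens, and Klf4, a differentiation factor of goblet cells and enterocytes. The mucin gene Muc2 was not called, with 21.8, 21.2 and 16.3 CPM in the combination and 24.0 to 52.0 CPM elsewhere (-0.92, 95% interval -1.55 to -0.30, adjusted p = 0.20).

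Paneth cell and antimicrobial genes gave 6 calls below (background 0.611%) and 1 above (background 0.255%) among 21 tested, with a median of -0.81. Ang4, a secreted bactericidal ribonuclease that type 2 cytokines induce, was at 449.8, 559.8 and 624 CPM untreated and 708, 566 and 521 with butyrate. IL-13 raised it to 2385, 2006 and 1692 CPM, and with butyrate to 1045, 878 and 725. The IL-13 increase was therefore 1.90 on the log2 scale without butyrate and 0.56 with it (interaction -1.34 ± 0.21, adjusted p = 0.0052), and the combined and IL-13 groups did not overlap. The pentraxin Mptx1, listed as 1810030J14Rik, gave a similar order: IL-13 took it from 1.72, 3.89 and 3.55 CPM to 30.6, 24.1 and 23.1, and the combination held it at 3.72, 3.42 and 2.34. Reg4, a secreted lectin, was at 493, 579 and 623 CPM untreated and 195, 143 and 91.1 with both (-1.27 ± 0.25, adjusted p = 0.018). The receptor kinase Kit (-1.45) and the colipase gene Clps (-1.26) were also called. Defa24 (-1.07) was called too, but alpha-defensin genes are near copies whose reads the counting could have split. Wnt3, the Wnt ligand that Paneth cells supply to stem cells, is not on that list; it was at 5.77, 5.29 and 4.56 CPM with IL-13, 6.30 to 7.65 with butyrate, 6.94 to 9.24 untreated and 1.03, 1.35 and 0.951 with both (-1.97 ± 0.31, adjusted p = 0.0043). Pigr, which carries antibodies across the epithelium, was the one called above (0.45): each agent alone lowered it from 2312 to 2347 CPM to between 1656 and 1799.8, and the combination, at 1686 to 1736 CPM, lay among the single-agent libraries. The lysozyme gene Lyz1 was not called (-0.69, 95% interval -1.16 to -0.22, adjusted p = 0.20).

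**Figure D2:**
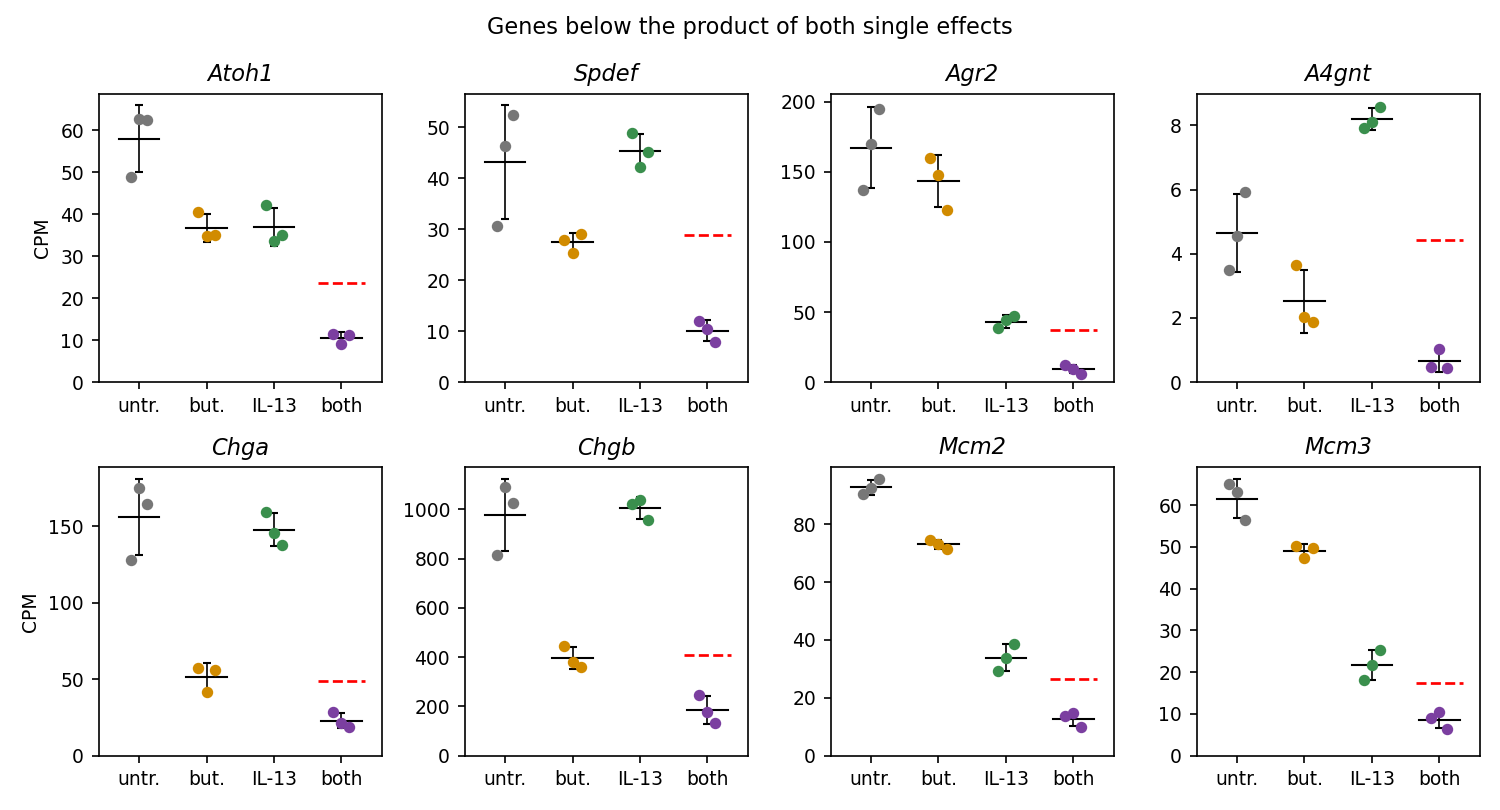
CPM of 8 genes called below the product in the 12 libraries, for untreated (untr.), butyrate (but.), IL-13 and combined (both) enteroids. Points are libraries, black bars group means, error bars SD (n = 3), and the red dashed line is the level that the product of both single effects gives for the combination; all 3 combined libraries lie under it in each panel.

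Enteroendocrine genes had the lowest median of the lists in the plot of interactions by gene list, -0.99, with 35 of 37 tested values negative and 4 genes called below (background 0.611%). Chga encodes chromogranin A, the core protein of hormone granules. It was at 128, 175 and 165 CPM untreated, 57.5, 41.6 and 56.0 with butyrate, 159.6, 146 and 138 with IL-13, and 28.3, 21.5 and 18.7 with both. Butyrate lowered Chga by 1.59 on the log2 scale alone and by 2.69 with IL-13 present, whereas IL-13 alone left it within the untreated range (interaction -1.10 ± 0.21, adjusted p = 0.015). Chgb, its partner granin, showed the same order at 813 to 1090.2 CPM untreated, 360.2 to 447 with butyrate, 956 to 1038 under IL-13 and 133 to 246 with both (-1.13 ± 0.22, adjusted p = 0.019). The Chgb call was lost without a filter on low counts and in 7 of 12 fits with a library left out (adjusted p of up to 0.14). The other 2 called genes were Lmx1a, a transcription factor of serotonin-making cells (-1.71 ± 0.36, adjusted p = 0.024), and Syt13, a synaptotagmin of endocrine cells (-1.55 ± 0.31, adjusted p = 0.018). Genes of excitable and secretory cells outside the list were called as well: Cacna2d1, a calcium channel subunit, stood at 0.791, 0.159 and 0.512 CPM in the combination and 2.04 to 6.74 elsewhere (-2.71), the potassium channel gene Kcnc1 at 1.12 to 1.34 against 1.88 to 7.93 (-1.81), and the G protein subunit gene Gng4 at 0.951 to 1.27 against 1.87 to 7.43 (-1.70). Neurod1 (-1.29, adjusted p = 0.054) and Tph1, the enzyme of serotonin synthesis (-1.27, 0.063), lay just outside the call. The summed level of the listed genes was 1445 to 1892 CPM untreated, 695 to 830.4 with butyrate, 2002 to 2197 under IL-13 and 501 to 706 with both.

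Tuft cell genes had a median of -0.75 and none of 30 was called. At an unadjusted p under 0.05 there were 9 below and 0 above, and DESeq2 called 2 below. Over all 13750 tested genes, 955 were below and 535 above at that p. Dclk1, the usual tuft cell marker, was at 26.5, 30.3 and 24.2 CPM with IL-13 and 6.01, 6.13 and 5.71 with both, against 6.73 to 8.70 untreated and 1.08 to 4.97 with butyrate. Its interaction of -0.96 had a 95% interval of -1.80 to -0.12 (adjusted p = 0.38).

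DNA replication genes were another group with calls below the product. Of 36 tested, 6 were called below (background 0.611%) and 0 above, 29 were negative, and the median was -0.48. Mcm2, Mcm3, Mcm5 and Mcm6 encode subunits of the MCM helicase, which unwinds DNA at replication forks. Mcm2 was at 90.4, 92.4 and 95.5 CPM untreated, 74.4, 73.2 and 71.5 with butyrate, 29.2, 33.7 and 38.5 with IL-13, and 13.8, 14.9 and 9.80 with both. The butyrate difference in Mcm2 was -0.34 on the log2 scale alone (adjusted p = 0.072) and -1.40 added to IL-13 (adjusted p = 1.5e-06), an interaction of -1.06 ± 0.17 (adjusted p = 0.0059) that was called without any 1 of the libraries. Mcm3 was at 9.02, 10.4 and 6.44 CPM with both, where the product was 17.3 (-1.01 ± 0.20, adjusted p = 0.019), and Mcm5 (-0.96) and Mcm6 (-0.85) were called as well. Rrm1, the large subunit of ribonucleotide reductase, was at 27.5, 28.3 and 24.1 CPM with both against 43.8, 49.4 and 54.7 with IL-13 (-0.65 ± 0.13, adjusted p = 0.023), and Chaf1a, a histone chaperone at the fork, was at 10.8 to 11.4 against 19.8 to 25.4 (-0.78 ± 0.15, adjusted p = 0.018). Outside the list, and named after their values were seen, the fork-protection genes Clspn (-1.34) and Timeless (-1.53), the chromatin remodeller Hells (-1.41) and the cell cycle transcription factor Mybl2 (-1.11) were also called below. Other members had values near the product: the reductase partner Rrm2 was at -0.14 (adjusted p = 0.90) and the thymidylate synthase gene Tyms at 0.06 (adjusted p = 0.98). The number of called members depends on the fit, from 1 to 9 over the alternatives, while the median of the list stayed between -0.65 and -0.34.

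Promoters of Mcm5 and Mcm6 are shown because they hold letters of the E2F element, the motif of S-phase genes, in capitals; the TTCNNNGAA match in the first is in capitals too. Both run over the 250 bases before the RefSeq start (build GRCm38.p6): Mcm5 at chr8:75109259-75109508 (+ strand) and Mcm6 at chr1:128359706-128359955 (- strand).
Mcm5: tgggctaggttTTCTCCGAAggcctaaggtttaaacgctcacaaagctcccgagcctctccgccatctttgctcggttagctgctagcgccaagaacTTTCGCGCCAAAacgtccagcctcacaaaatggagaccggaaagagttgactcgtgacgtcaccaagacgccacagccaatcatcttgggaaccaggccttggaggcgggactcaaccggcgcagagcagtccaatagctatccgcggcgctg
Mcm6: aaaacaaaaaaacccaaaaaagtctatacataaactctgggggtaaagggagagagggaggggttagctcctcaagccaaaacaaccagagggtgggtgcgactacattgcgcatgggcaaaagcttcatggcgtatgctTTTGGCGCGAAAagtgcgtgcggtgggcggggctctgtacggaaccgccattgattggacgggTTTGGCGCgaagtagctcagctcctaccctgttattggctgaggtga
The letters searched were TTTNNCGC on both strands, chosen after the calls were seen. They occur in 8 of the 30 replication-list genes with a RefSeq window (26.7%), in 2 of the 6 called ones, and in 8.0% of the 10364 tested genes with a window. Among all genes called below with a window, 6 of 67 held them (8.96%).

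Neighbouring growth programmes leaned the same way without calls. All 30 proliferation and mitosis genes were negative (median -0.38), with 14 below at an unadjusted p under 0.05 and 2 called by DESeq2. Of all 13750 tested genes, 955 were below at that p. Mki67 was at 88.6 to 148 CPM under IL-13 and 73.2 to 81.9 with both (-0.60, 95% interval -1.0 to -0.20, adjusted p = 0.19). Of 33 ribosome biogenesis genes, 30 were negative (median -0.37) and 0 were called, against 17 below at an unadjusted p under 0.05 and 1 called by DESeq2. The cell cycle inhibitor Cdkn1a, which each agent raised, sat close to the product: 435 to 448 CPM untreated, 659 to 728 with butyrate, 1323 to 1505 under IL-13 and 1968 to 2038 with both (-0.14, 95% interval -0.36 to 0.08). Among 25 stem cell and Wnt genes, 2 were called below (background 0.611%). Olfm4, a stem cell marker of the small intestine, was at 24.7 to 30.2 CPM untreated, 4.87 to 9.62 with butyrate, 19.5 to 24.2 under IL-13 and 1.76 to 2.53 with both (-1.34 ± 0.31, adjusted p = 0.043). The Olfm4 call was lost after thinning, without the Lars2-high libraries and in 10 of 12 fits with a library left out (adjusted p of up to 0.16). The chloride cotransporter gene Slc12a2 was at 104 to 151 CPM with both against 304 to 335 under IL-13 and 418 to 615 with butyrate (-1.17 ± 0.19, adjusted p = 0.0056). Lgr5 was not called (-1.01, 95% interval -2.10 to 0.07).

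**Figure D3:**
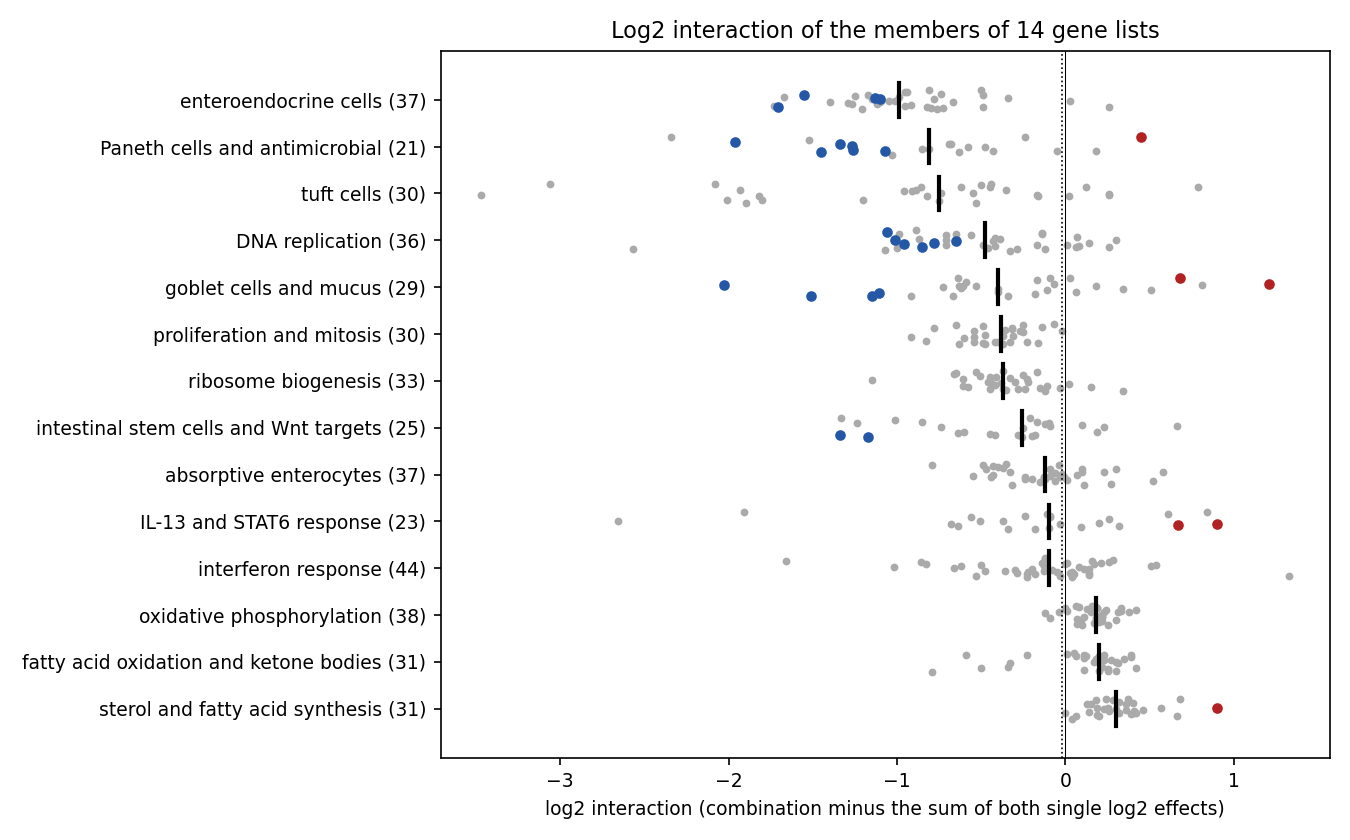
Log2 interaction of each tested member of 14 gene lists, with the number tested in brackets. Blue and red points were called below and above the product, grey points were not called, black bars are list medians and the dotted line is the median of all genes, -0.02; the enteroendocrine list lies farthest to the left at -0.99 and the sterol list farthest to the right at 0.30.

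Scin, Nat8, Nat8f5 and Extl1 were raised by each agent, and the combination gave less than the product. They and Slc40a1 were chosen after their values were seen. Scin, an actin-severing protein of secretory cells, was at 25.1, 28.7 and 22.1 CPM untreated, 80.3, 80.8 and 79.4 with butyrate, 88.0, 68.5 and 75.0 with IL-13, and 107, 79.8 and 111 with both. The 2 agents together thus gave little more than either, where the product of their effects was 245 CPM (-1.29 ± 0.18, adjusted p = 0.0015). Nat8, an N-acetyltransferase of the endoplasmic reticulum, was at 104, 124 and 115 CPM with both and 92.8 to 106 with IL-13 (-0.88 ± 0.14, adjusted p = 0.0059). Its neighbour and close relative Nat8f5, listed as Cml5, gave -1.19 ± 0.14 (adjusted p = 0.00051), and reads may be shared between the pair. The exostosin family gene Extl1 did go on rising, to 80.5, 85.5 and 92.2 CPM with both from 24.4 to 27.6 with butyrate and 39.9 to 42.3 with IL-13, but stayed under its product of 181 CPM (-1.07 ± 0.16). The iron exporter Slc40a1 was raised by IL-13 by 1.48 on the log2 scale without butyrate and by 0.35 with it: it was at 392 to 548 CPM with IL-13, 151 to 197 untreated, 153 to 204 with butyrate and 238, 194 and 257 with both (-1.13 ± 0.19, adjusted p = 0.0073). The retinoic acid receptor gene Rarb was also raised less, at 18.2, 15.2 and 15.2 CPM with IL-13 and 7.12, 7.57 and 9.58 with both, against 1.26 to 2.39 in the libraries without IL-13 (-1.40 ± 0.30, adjusted p = 0.031).

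The remaining named genes below the product had single roles. Rgs4 (-2.51) and Rgs16 (-2.32), which shorten G protein signals, were at 0.319 to 1.11 and 0.219 to 0.717 CPM with both. The chemokine gene Ccl6 was at 8.62, 7.09 and 8.12 CPM with both against 16.8 to 38.4 in the other 9 libraries (-1.61 ± 0.27, adjusted p = 0.0073). Amigo2, an adhesion molecule, was at 1.17 to 1.59 CPM against 2.76 to 14.5 (-1.66). Pla2g4a, the cytosolic phospholipase that frees arachidonic acid, was at 2.55 to 3.16 CPM against 5.55 to 13.9 (-1.09). The water channel gene Aqp1 (-1.01) was lowered by each agent, from 125 to 139 CPM down to 70.3 to 80.6 with butyrate and 28.3 to 41.2 with IL-13, and was at 8.12 to 11 with both. Prelp, a matrix proteoglycan, went from 49.4 to 53.9 CPM untreated to 0.878 to 3.80 with both (-2.21, adjusted p = 0.022). The Prelp call was lost with DESeq2, without a filter on low counts, without the Lars2-high libraries and in 10 of 12 fits with a library left out, with an adjusted p of up to 0.24 over all alternatives.

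Both genes of the dual oxidase of the epithelial surface were above the product. Duox2 makes hydrogen peroxide at the apical membrane and Duoxa2 is the maturation factor it needs to reach that membrane. Duox2 (chr2:122279247-122298165, - strand) was at 39.4, 49.3 and 43.0 CPM untreated, 38.5, 39.1 and 32.8 with butyrate, 748, 777 and 806 with IL-13, and 958, 1070.3 and 1073 with both. Duoxa2 (chr2:122298900-122302885, + strand) was at 22.7, 25.2 and 28.4 CPM untreated, 16.4, 13.6 and 18.6 with butyrate, 599.9, 595 and 688 with IL-13, and 715, 792 and 723 with both. For both genes the combined libraries were the highest of the 12, and butyrate did not raise either one on its own. Duox2 stood at 1.59 times the product (interaction 0.67 ± 0.13, adjusted p = 0.019) and Duoxa2 at 1.86 times (0.90 ± 0.15, adjusted p = 0.0073). Butyrate alone lowered Duoxa2 by 0.65 on the log2 scale (adjusted p = 0.0013), and with IL-13 present the change was 0.24 (adjusted p = 0.094). Duoxa2 was called without any 1 of the libraries, and Duox2 in 8 of 12 such fits.

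The pair is transcribed in opposite directions from RefSeq starts 673 bases apart, so the 250 bases before each start, shown because both genes moved together, face each other: Duox2 at chr2:122298228-122298477 (- strand) and Duoxa2 at chr2:122298650-122298899 (+ strand), GRCm38.p6. The third sequence is that of Tgfbi at chr13:56609336-56609585 (+ strand), where capitals mark the letters GAAANNGAAA of the interferon-stimulated response element.
Duox2: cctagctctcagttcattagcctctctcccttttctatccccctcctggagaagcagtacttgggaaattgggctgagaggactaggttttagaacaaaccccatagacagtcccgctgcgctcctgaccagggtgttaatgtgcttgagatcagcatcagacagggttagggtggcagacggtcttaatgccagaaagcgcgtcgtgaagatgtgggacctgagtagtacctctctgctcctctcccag
Duoxa2: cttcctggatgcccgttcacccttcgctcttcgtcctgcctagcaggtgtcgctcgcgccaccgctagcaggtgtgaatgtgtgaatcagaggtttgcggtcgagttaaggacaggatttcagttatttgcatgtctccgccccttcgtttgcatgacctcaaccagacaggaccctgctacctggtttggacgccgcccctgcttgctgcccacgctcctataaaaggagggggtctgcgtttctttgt
Tgfbi: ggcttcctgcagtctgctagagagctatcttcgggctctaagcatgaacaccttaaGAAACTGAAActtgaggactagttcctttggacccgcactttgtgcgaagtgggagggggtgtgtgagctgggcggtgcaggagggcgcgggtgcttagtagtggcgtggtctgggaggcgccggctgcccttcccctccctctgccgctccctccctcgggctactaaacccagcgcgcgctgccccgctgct
Neither Duox window held that element, the STAT6 letters TTCNNNNGAA, the related STAT letters TTCNNNGAA or the E2F letters, each searched on both strands. The interferon letters were in 1 of 26 genes above the product with a window (3.85%), 2 of 67 below (2.99%) and 3.14% of all tested genes with a window. The STAT6 letters were in 3.85% above, 7.46% below and 5.46% of all, and TTCNNNGAA in 3.85%, 7.46% and 7.23%. The STAT patterns differ by one spacer base, and no pattern set the called genes clearly apart from the rest.

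**Figure D4:**
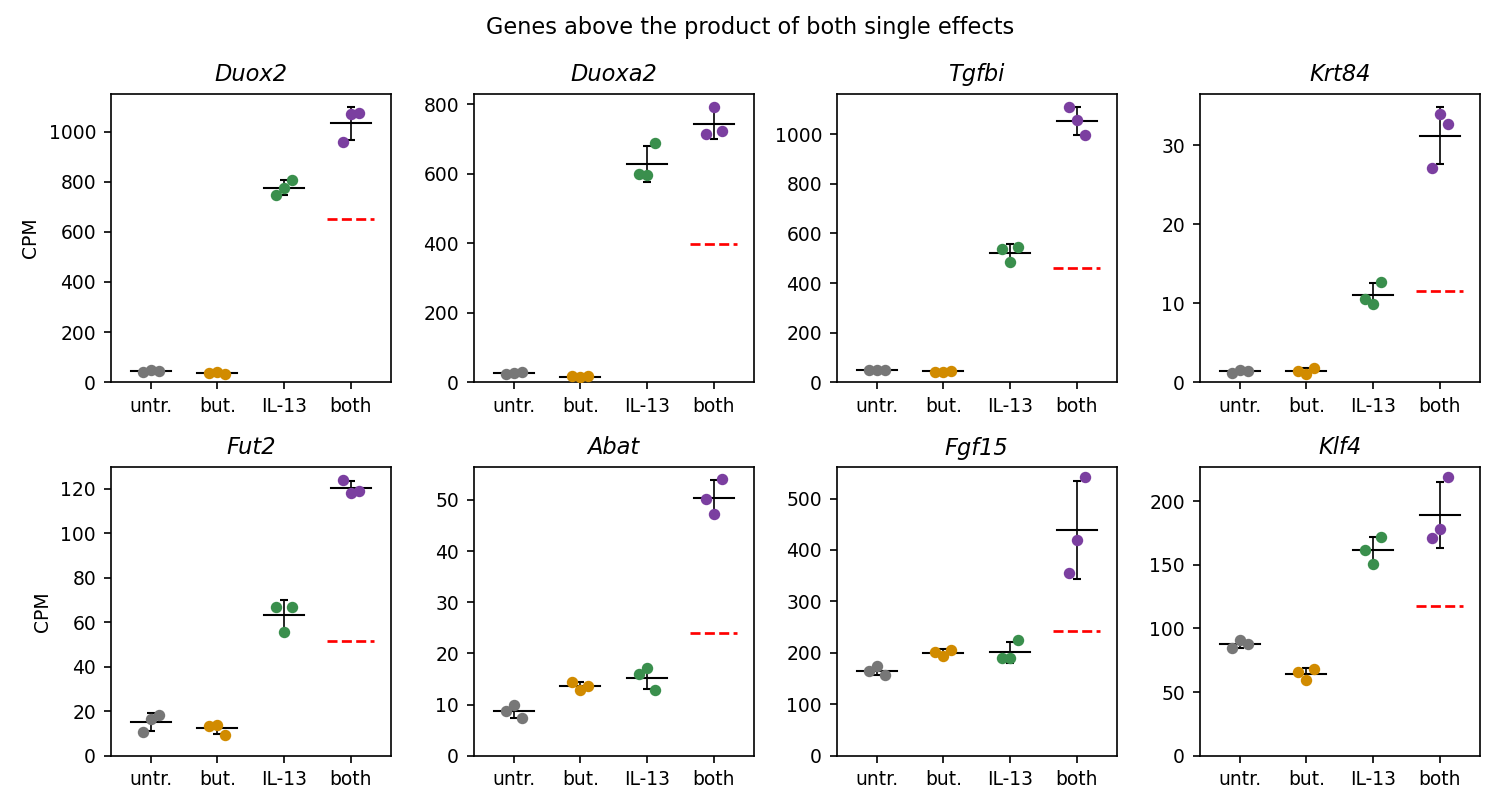
CPM of 8 genes called above the product in the 12 libraries, drawn as in the plot of genes below the product (n = 3 per group, error bars SD). All 3 combined libraries lie above the red dashed line of the product in each panel; in Fgf15 the combined libraries spread from 355 to 542 CPM.

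Tgfbi, a secreted adhesion protein of the extracellular matrix, had the smallest adjusted p among the genes above. It was at 48.7, 51.1 and 47.9 CPM untreated, 41.1, 42.8 and 46.8 with butyrate, 536, 485 and 547 with IL-13, and 1111, 1056 and 999 with both. Butyrate alone did not pass the test for Tgfbi (adjusted p = 0.22), whereas added to IL-13 it raised the gene by 1.01 on the log2 scale, to 2.29 times the product (interaction 1.19 ± 0.11, adjusted p = 6.4e-05). Capn13, a calpain protease, was at 1.45 to 2.27 CPM with butyrate against 3.53 to 3.77 untreated, and at 124 to 145 with both against 109 to 122 with IL-13 (1.23 ± 0.19, adjusted p = 0.0048). Fut2, named above among the mucus genes, was at 124, 118 and 119 CPM with both, 67.0, 55.5 and 67.0 under IL-13 and 9.40 to 18.3 without IL-13 (1.21 ± 0.23, adjusted p = 0.014). Krt84, a hard keratin of hair and tongue, was at 27.1, 33.9 and 32.7 CPM with both, 9.89 to 12.7 under IL-13 and 1.09 to 1.81 without (1.44 ± 0.28, adjusted p = 0.019). Klf4 was at 171 to 219 CPM with both and 150.4 to 172 with IL-13, after 59.2 to 68.3 with butyrate and 84.3 to 91.0 untreated (0.68 ± 0.14, adjusted p = 0.021). None of these 5 genes was called higher with butyrate alone, and the IL-13 rise was larger in its presence. Butyrate alone lowered Capn13 and Klf4 (log2 changes of -1.03 and -0.45, adjusted p = 0.00057 and 0.0067). Added to IL-13, butyrate did not pass the test for these 2 genes (0.20 and 0.23, adjusted p = 0.15 and 0.097). A mucin gene listed under a clone name, now Muc3a, was chosen after its values were seen: it was at 40.3, 52.3 and 48.9 CPM with both and 39.0, 29.3 and 34.0 with IL-13 (1.17 ± 0.20, adjusted p = 0.0089), and reads may be shared with the Muc3 entry.

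Abat, Acss1, Slc1a1, Me1 and Fads3, with roles in metabolism or transport, were also above the product. Abat, which breaks down the transmitter GABA in mitochondria, was at 7.32 to 10 CPM untreated, 14.5, 12.8 and 13.6 with butyrate, 15.9, 17.1 and 12.8 with IL-13, and 50.1, 47.2 and 54.1 with both. It is a case where each agent raised the gene and both together exceeded the product, by 2.12 times (1.09 ± 0.19, adjusted p = 0.0089). Acss1, the mitochondrial enzyme that activates acetate, was at 98.4 to 109.8 CPM with both, 63.6 to 69.9 with IL-13, 41.7 to 42.1 with butyrate and 50 to 53.1 untreated (0.91 ± 0.11, adjusted p = 0.00065). Slc1a1, a glutamate transporter, was at 169 to 198 CPM with both and 103 to 123 with IL-13 (0.92 ± 0.14, adjusted p = 0.0043). An antisense transcript inside Slc1a1 was called too, and its reads cannot be told apart from those of Slc1a1 unless strand was used in counting. Me1, the cytosolic malic enzyme that supplies NADPH, was at 133 to 163 CPM with both and 111 to 143 with IL-13, which overlap, and 4.76 to 7.75 with butyrate against 8.65 to 11.2 untreated (0.90 ± 0.21, adjusted p = 0.047). The fatty acid desaturase family gene Fads3 was at 27.9 to 33.6 CPM with both against 11.6 to 12.8 under IL-13 and 17.9 to 26.5 without (1.04 ± 0.20, adjusted p = 0.018). The zinc finger gene Zfp93 (1.04) was lower with IL-13 and at 7.43 to 8.28 CPM with both, within 5.29 to 9.64 CPM of the other libraries.

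Fgf15, the ileal hormone that bile acids induce through the receptor FXR and that restrains bile acid synthesis in the liver, was raised in the combination. It was at 165, 174 and 156 CPM untreated, 202, 193 and 206 with butyrate, 189.7, 189 and 224 with IL-13, and 355, 420.3 and 542 with both (0.85 ± 0.16, adjusted p = 0.018). It was the only one of 15 tested bile acid genes called by this fit (background 0.255% above), and 9 of the 15 had negative interactions. At an unadjusted p under 0.05, 1 was above and 3 below, where 535 and 955 of all 13750 tested genes were. DESeq2 called 1 bile acid gene above and 2 below. Of 23 tested ion transport genes, 2 were called above (background 0.255%) and 2 below (background 0.611%), and the median was -0.02. Those below were Slc12a2 and Aqp1. Kcne3 and Ano1 were the ion transport genes called above: Kcne3, a potassium channel subunit that sustains chloride secretion, at 157 to 176 CPM with both against 104 to 136 elsewhere (0.56 ± 0.11, adjusted p = 0.016), and Ano1, a calcium-activated chloride channel, at 248 to 291 CPM with both against 217 to 231 with IL-13 (0.54 ± 0.11, adjusted p = 0.024). The serotonin transporter Slc6a4, chosen after its values were seen, was at 55.3 to 58.2 CPM with both and 31.1 to 40.9 in the other libraries (0.71 ± 0.13, adjusted p = 0.010).

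Metabolic lists had medians on either side of 0. All 31 sterol and fatty acid synthesis genes had interactions of 0 or above (median 0.30), with 12 above at an unadjusted p under 0.05, but only Me1 was called. Over all 13750 tested genes, 535 were above and 955 below at that p. Of 38 oxidative phosphorylation genes, 34 were positive (median 0.18) and 0 were called, with 4 above at an unadjusted p under 0.05 and 1 called by DESeq2. Of 31 fatty acid oxidation and ketone body genes, 25 were positive (median 0.20) and 0 were called, with 7 above and 2 below at an unadjusted p under 0.05 and 1 called by DESeq2. The medians of these 3 lists stayed between 0.09 and 0.36 over all alternatives. Among other metabolic lists, 39 xenobiotic and conjugation genes had a median of -0.07 and 0 called. At an unadjusted p under 0.05, 2 of them were above and 7 below, and DESeq2 called 2 below. The 21 polyamine and glycogen genes had a median of -0.05 and 0 called. At that p 1 was above and 3 below, and DESeq2 called 1 in each direction. The 22 retinoid genes had a median of -0.01, with Rarb called below (background 0.611%). At that p, 4 retinoid genes were above and 1 below. The summed level of 37 tested absorptive enterocyte genes was 15635 to 17068 CPM untreated, 20452 to 21582 with butyrate, 20066 to 21175 under IL-13 and 23722 to 30421 with both; it moved with the groups beside these lists, and its part in them was not tested.

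Several genes with large single effects were not called on the log2 scale. The gasdermin Gsdmc2, which forms membrane pores, went from 0.689 to 1.01 CPM untreated to 638 to 848 with IL-13, and from 0.156 to 1.13 with butyrate to 338 to 425 with both. Its interaction of -0.37 had a 95% interval of -1.39 to 0.64. Gsdmc4 was alike (-0.64, 95% interval -1.59 to 0.30), and the phospholipase gene Pla2g4c, at 1256 to 1883 CPM under IL-13 and 1212 to 1930.3 with both, gave -0.09 (95% interval -1.05 to 0.87). Reads could be shared among the Gsdmc genes. Clca1, a secreted goblet cell protein listed under its older symbol Clca3, was raised by IL-13 and lowered by butyrate close to the product (-0.18, 95% interval -0.52 to 0.15). On the butyrate side, none of 44 interferon response genes was called (median -0.10, 3 below and 0 above at an unadjusted p under 0.05, 0 by DESeq2). At that p, 955 of all 13750 tested genes were below and 535 above. The antiviral sensor gene Oas3 was at 41.8 to 53.8 CPM with butyrate and 29.0, 44.8 and 55.5 with both (-0.23, 95% interval -0.99 to 0.53), and its regulator Irf7 gave -0.50 (95% interval -0.97 to -0.03, adjusted p = 0.42). The goblet protein gene Zg16 (0.51, 95% interval -0.41 to 1.42) and the enterocyte phosphatase gene Alpi (-0.04, 95% interval -0.52 to 0.45) were not called. Unlike the others, Alpi had no large single effect. By the same edgeR test its log2 change was -0.01 with IL-13 alone (adjusted p = 0.96) and -0.08 with butyrate alone (adjusted p = 0.83). A missed threshold does not show that these genes were additive, and the intervals give what the data allow.

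**Figure D5:**
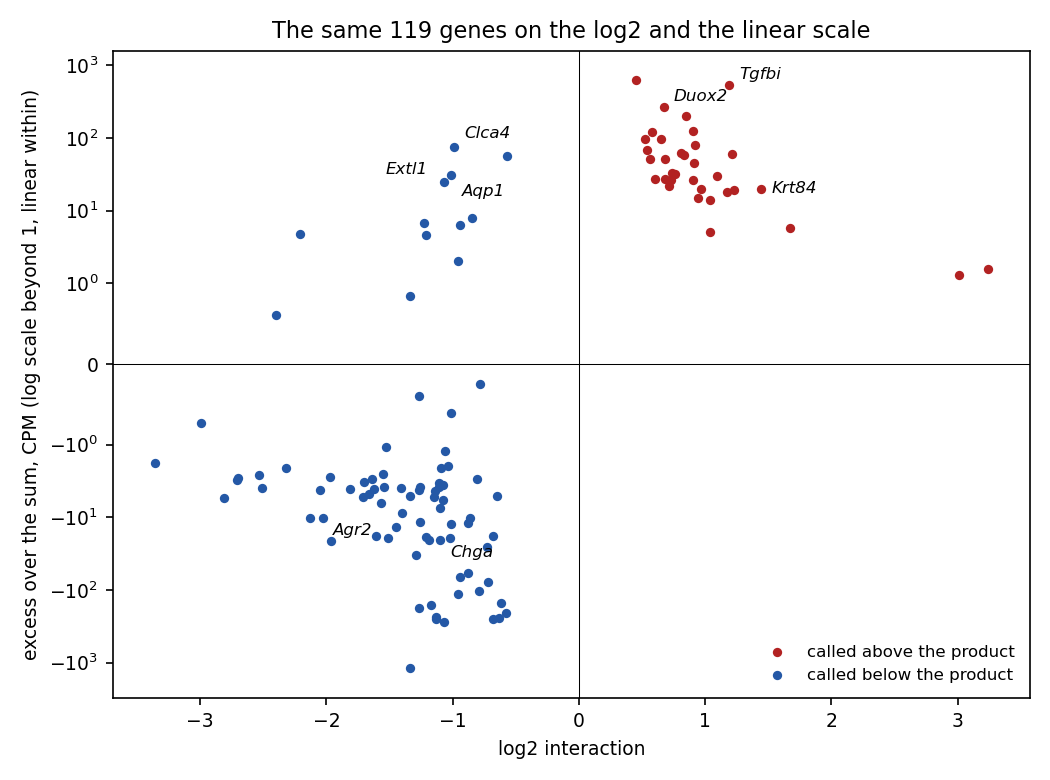
Each point is 1 of the 119 called genes, with its log2 interaction (x) and, on the linear scale, the combined CPM minus the sum that both single differences from untreated give (y, a symmetric log axis that is linear within 1 CPM). All 35 genes above the product are also above the sum, while 12 of the 84 genes below the product lie above the sum.

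Additivity depends on the scale, and the plot of both scales shows where. On the linear scale a combination is additive when its CPM differs from untreated by the sum of both single differences. All 35 genes above the product were also above the sum, 27 of them with a limma call on CPM. Of the 84 below the product, 72 were below the sum, 21 of them called, and 12 were above it, 3 of them called: Clca4 (now Clca3b), Aqp1 and Extl1. For the genes that both agents lower, the sum can fall under what a transcript level can reach. For Aqp1 the sum was -21.4 CPM and the product 19.2, and the combination was at 9.56 ± 1.44 (SD, n = 3). Agr2, Spdef, Chga, Mcm2 and Atoh1 were at 9.13, 10.1, 22.8, 12.8 and 10.6 CPM against sums of 19.4, 29.7, 43.7, 14 and 15.8, and none of the 5 passed the limma test on CPM (adjusted p = 0.92, 0.15, 0.71, 0.97 and 0.82). The limma test uses 1 variance per gene for all groups, which limits what it can call at low levels. For Agr2 the SD was 29.3 CPM untreated and 2.94 with both. How far this lowered the number of limma calls was not tested. Over all tested genes that test called 112 above the sum and 57 below it, so the balance of 35 above and 84 below the product turned round. Some genes not called on the log2 scale were called below the sum. The combined level minus the sum was -352 CPM for Gsdmc2 (limma adjusted p = 0.006), -567 for Gsdmc4 (0.045), -457 for Clca1, listed as Clca3 (0.0083), -1130 for Lyz1 (0.00078), -16.7 for Dclk1 (0.00054) and -16.4 for Lgr5 (0.020).

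The calls rest on 3 libraries per cell of the design, and 39 of the 119 were made in all 12 fits that left out a library. Those 39 held 12 above the product, among them Tgfbi, Capn13, Duoxa2, Abat, Slc1a1 and Acss1, and 27 below, among them Atoh1, Spdef, Agr2, Ang4, Kit, Wnt3, Mcm2, Amigo2, Ccl6 and A4gnt. Without both Lars2-high libraries, a fit on fewer samples, the calls of Krt84, Id3, Klf4, Ano1, Rrm1, Pla2g4a, Rarb, Syt13, Gng4, Kcnc1 and Rgs16 were lost in addition to those of Prelp, Olfm4 and Ern2. Me1 and Pla2g4a were lost in 10 of 12 fits with a library left out, Zfp93, Ano1 and Gng4 in 9, and Id3, Reg4, Rarb, Lmx1a and Kcnc1 in 8. Without both Lars2-high libraries the calls below were 3 enteroendocrine, 4 Paneth, 4 goblet and 3 replication genes. Over all alternatives they ran from 0 to 11 for the enteroendocrine list and from 2 to 7 for the Paneth list. Without butyrate library 3 or combined library 1 the number called was 213 or 182, and it was 55 without untreated library 2.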

How the data were processed

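Poly(A) RNA from enteroids, 12 libraries in 4 groups of 3, was counted per gene. The authors deposited one table of raw read counts for all libraries, and the submitters' processing notes name the mouse genome build mm10; the aligner, counter, strand setting and filters are not given in these sources. Every row has a count in at least 1 untreated or IL-13 library, while 1018 genes have none in the butyrate libraries. Rows of 23 genes with several rows were summed, which left 18068 genes from 18092 rows, and 98.4% of the identifiers were found in GENCODE.

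Counts were fitted in edgeR 4.0.16 (R 4.3.3) with filterByExpr (4318 genes removed), TMM scaling and robust quasi-likelihood dispersion over all 12 libraries (8 residual degrees of freedom, biological coefficient of variation 10.2%), without a replicate block. Standard errors are Wald errors from that fit with a median of 0.181 for the interaction and 0.128 for the IL-13 change alone, intervals are 95%, and p-values were adjusted by Benjamini-Hochberg over 13750 genes. CPM are TMM-scaled. The procedure was tested on simulated data. Replicate libraries differed beyond sampling noise, with a chi-square per degree of freedom of 3.82 to 35.8. The product level is the untreated level times both single fold changes. Alternatives were DESeq2 1.42.0, RLE scaling, 2 other filters, thinning to the lowest total, limma 3.58.1 on CPM, a replicate block and left-out libraries. Promoter windows (RefSeq, GRCm38.p6, 250 bases before the start) were matched by symbol.

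Named genes were the 12 largest called changes in each direction with a mean of at least 50 counts, predicted and clone symbols skipped, up to 4 called genes per list by adjusted p, and a set list of 17; others are said to be chosen later, and Clps, Defa24, Pigr, Mcm5, Mcm6, Car4, Slc11a2, Neurod1, Tph1, Rrm2, Tyms and Clca4 are also outside the rule. The members and lists were chosen with earlier results of these data known. Some items are not reported here.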

Additional observations from a re-analysis of the deposited data

Results flagged for a closer look

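The IL-13 change differed between enteroids without and with butyrate, by the test of the interaction itself, in 49 named genes, and each log2 interaction follows. Above the product were Krt84 (1.44), Capn13 (1.23), Fut2 (1.21), Tgfbi (1.19), Abat (1.09), Zfp93 (1.04), Fads3 (1.04), Slc1a1 (0.92), Acss1 (0.91), Me1 (0.90), Duoxa2 (0.90), Fgf15 (0.85), Id3 (0.71), Klf4 (0.68), Duox2 (0.67), Kcne3 (0.56) and Ano1 (0.54). Of these 17 genes, the IL-13 change was negative without butyrate and positive with it in Zfp93 and Fads3.

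Below the product, the replication genes were Rrm1 (-0.65), Chaf1a (-0.78), Mcm3 (-1.01) and Mcm2 (-1.06). The secretory and antimicrobial genes were Ern2 (-1.11), Atoh1 (-1.15), Reg4 (-1.27), Ang4 (-1.34), Kit (-1.45), Spdef (-1.51), 1810030J14Rik (-1.96), Wnt3 (-1.97), Agr2 (-2.03), Rep15 (-2.13) and A4gnt (-2.81). The endocrine and excitable-cell genes were Chga (-1.10), Chgb (-1.13), Syt13 (-1.55), Gng4 (-1.70), Lmx1a (-1.71), Kcnc1 (-1.81) and Cacna2d1 (-2.71). The others were Aqp1 (-1.01), Pla2g4a (-1.09), Slc12a2 (-1.17), Olfm4 (-1.34), Rarb (-1.40), Ccl6 (-1.61), Amigo2 (-1.66), Prelp (-2.21), Rgs16 (-2.32) and Rgs4 (-2.51).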

How the results depend on the processing

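DESeq2 called 276 genes (109 above the product, 167 below), including all 35 and 82 of the 84, and the cause of the higher number was not tested. On the linear CPM scale 112 genes were called above the sum and 57 below it, which turns the balance round. Leaving out 1 library gave 55 to 213 calls, 16 to 81 above and 36 to 132 below: 76, 55 and 69 without untreated library 1, 2 or 3, 56 and 213 without butyrate library 1 or 3, 68, 64 and 70 without IL-13 library 1, 2 or 3, and 182 and 70 without combined library 1 or 3; without combined library 2, 23 were above. Fewer samples enter each such fit. The butyrate effect alone gave 559 to 1395 calls (main 1086; 607, 559 and 624 without untreated 2, untreated 3 and butyrate 1) and butyrate added to IL-13 gave 1935 to 3451 (main 2912; 1935 without combined library 3). RLE scaling, both filters, thinning and the removal of both libraries high in Lars2 kept the counts of calls within 1.5 times. Same-numbered libraries showed no clear shared deviation (18 correlations of -0.151 to 0.0965). With 3 libraries per group this cannot exclude a pairing, and the labels do not state one. With a replicate block 114 genes were called (36 above, 78 below).

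Of the 49 named called genes, 14 lost the call without both Lars2-high libraries, 6 with the block (Ern2, Olfm4, Rarb, Gng4, Kcnc1 and Prelp), 5 after thinning, 3 without a filter, 2 with the higher filter, 1 each with RLE and DESeq2, and 182 of 588 left-out-library tests lost it. On the linear scale 28 lost it and 3 reversed: Aqp1 (31.0 CPM, adjusted p = 0.033), Olfm4 (0.844) and Prelp (4.80). Among uncalled genes the sign reversed for Zg16 (-0.10) and Pla2g4c (0.01) without the Lars2-high libraries, for Pla2g4c (52.1 CPM) and Cdkn1a (338 CPM) on the linear scale, and with 1 library left out for Alpi (-0.27 to 0.18), Pla2g4c (-0.56 to 0.62), Oas3 (-0.66 to 0.06), Gsdmc2 (-0.94 to 0.42) and Gsdmc4 (-1.19 to 0.11). The median standard error of 0.181 limits how small a departure from the product the test can call.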

Other observations

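Calcium handling genes of enterocytes, chosen after their values were seen, were among those below the product. S100g, the calcium-binding protein calbindin-D9k, was at 418 to 461 CPM untreated, 182 to 241 with butyrate, 659 to 749 under IL-13 and 202 to 220.1 with both (interaction -0.68, adjusted p = 0.021), so that the IL-13 rise was present without butyrate and not with it. Atp2b1, a plasma membrane calcium pump, was raised by each agent, from 414 to 490.4 CPM to 608 to 704 with butyrate and 668 to 712 with IL-13, and was at 570.3 to 746 with both (-0.63, adjusted p = 0.031). Papss2, which makes the sulfate donor for mucin and steroid sulfation, had the same shape at 238 to 317 CPM with IL-13, 261 to 300.2 with butyrate and 244 to 371 with both (-0.96, adjusted p = 0.017).

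Ggn, also chosen after its values were seen, departed above the product at levels near 1 CPM. It was at 1.01 to 1.26 CPM untreated, 0.566 to 0.861 with butyrate, 0.136 to 0.288 under IL-13 and 0.951 to 1.19 with both (3.01, adjusted p = 0.025).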
